A study of Mus musculus with 9 samples.

Results

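The 9 genes described here encode small leucine-rich proteoglycans (Dcn, Bgn, Lum, Ogn, Aspn, Prelp, Fmod and Podn) and the large hyaluronan-binding proteoglycan versican (Vcan). They were chosen by symbol, and all 9 of 9 were found among the 53465 gene rows of the count files and among the 13825 genes that passed the filter on low counts. RNA was sequenced from the infarct border zone of NOD-SCID mice, an immunodeficient strain without functional B and T lymphocytes, in 3 groups of 3 libraries. One group had sham surgery, one had coronary artery ligation, and one had coronary artery ligation and implantation of FOXO3-GE-MPCs, a cell product whose abbreviation the labels do not spell out. The age and sex of the mice, the time after surgery and the number of animals behind a library are not given in the sources used here. For cell replicates 2 and 3 the labels disagree: their source entries read FOXO4 and FOXO5, while their titles read FOXO3 and were followed. The region in sham hearts carries the same border zone label although those hearts were not ligated.

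Small leucine-rich proteoglycans are secreted proteins built from tandem leucine-rich repeats, and most carry chondroitin, dermatan or keratan sulfate chains. They bind the surface of collagen fibrils and regulate how fibrils grow and pack, and several of them bind growth factors such as TGF-beta. Versican belongs to a separate family that links hyaluronan to the rest of the matrix, and it is prominent in developing and injured tissue. In the heart these transcripts come mainly from fibroblasts and other stromal cells. In bulk RNA, more cells of a type and more RNA per cell cannot be told apart.

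Several members lie side by side in the genome (mm10 per the submitters' processing notes; positions from GENCODE M21). Dcn (chromosome 10, 97479609 to 97518143) and Lum (chromosome 10, 97565128 to 97572703) are 46.98 kb apart on the same strand, with 0 protein-coding genes between them and with Kera and Epyc following. Aspn (chromosome 13, 49544443 to 49567565) and Ogn (chromosome 13, 49608046 to 49624501) flank Omd, and Ecm2 lies 11.65 kb before Aspn. Prelp (chromosome 1, 133910304 to 133921414) and Fmod (chromosome 1, 134037254 to 134048277) are 115.8 kb apart on opposite strands. Bgn (chromosome X, 73483602 to 73495933), Podn (chromosome 4, 108014791 to 108096445) and Vcan (chromosome 13, 89655312 to 89742509) stand apart from the other members. Counting was at the level of whole genes, so no exon or transcript form was resolved. Exons of Prelp overlap those of the antisense gene Gm15851 over 9.68% of their length, and since no strand setting is stated, the reads of that stretch cannot be assigned to one of them. In Aspn this overlap was 0.297%, and it was 0 in the other 7 members.

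The upstream sequences of the 3 members whose levels differed between ligated hearts with and without cells are shown to let their promoters be compared. Each is the 250 bases before the transcription start in RefSeq (GRCm38.p6), read 5′ to 3′ on the gene's strand, and 7 of the 9 members were matched in that table. Bgn is from chrX:73483351-73483600 (plus strand), Prelp from chr1:133921402-133921651 (minus strand) and Fmod from chr1:134037004-134037253 (plus strand). Capitals mark matches, on either strand, to the 5 motifs searched: the SMAD element CAGAC, the GC box GGGCGG, the TEAD element CATTCC, the AP-1 element TGANTCA and the TATA box TATAAA.
Bgn: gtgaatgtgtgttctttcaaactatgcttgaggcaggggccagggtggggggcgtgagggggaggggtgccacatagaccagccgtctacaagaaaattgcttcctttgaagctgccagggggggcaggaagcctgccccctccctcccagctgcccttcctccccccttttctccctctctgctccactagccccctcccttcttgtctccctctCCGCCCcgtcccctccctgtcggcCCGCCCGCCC
Prelp: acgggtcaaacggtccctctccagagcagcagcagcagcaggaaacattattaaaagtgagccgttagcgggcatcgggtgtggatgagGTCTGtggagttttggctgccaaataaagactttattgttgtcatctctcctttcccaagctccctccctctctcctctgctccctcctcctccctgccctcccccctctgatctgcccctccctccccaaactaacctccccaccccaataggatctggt
Fmod: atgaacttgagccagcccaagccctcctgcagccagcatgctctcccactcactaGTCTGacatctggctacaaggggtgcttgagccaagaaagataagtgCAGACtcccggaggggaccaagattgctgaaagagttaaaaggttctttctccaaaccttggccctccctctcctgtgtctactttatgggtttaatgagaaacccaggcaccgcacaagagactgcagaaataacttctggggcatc
The Bgn window held 3 GC boxes, the last 2 of them overlapping, and the windows of Podn (the upstream one of 2) and Vcan held 2 each. Fmod held 2 SMAD elements and Prelp held 1, and the windows of the other 5 matched members held 0. Of 32851 windows of this length, 32.74% held a GC box and 42.19% held a SMAD element, so neither match is rare. The Ogn window held 1 TEAD element, found in 12.64% of windows. Ogn and Aspn each held 2 matches to the TATA box, found in 12.37%. The 2 matches in Ogn overlap on opposite strands, while those in Aspn lie apart. The AP-1 element, found in 6.749% of windows, had 0 matches in the 7 matched members. Dcn and Lum had no entry and were not searched. A match describes letters in the window and is not evidence of binding.

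Libraries held 4549268 (ligation replicate 1) to 7515052 (ligation replicate 3) gene counts, and the members gave from 87 (Fmod, sham replicate 2) to 9231 counts (Dcn, ligation replicate 3) per library. Levels are counts scaled to a common library size (CPM) after TMM scaling, where 3 counts equal 0.375 to 0.639 CPM. Mitochondrially encoded genes took 19.1% to 19.9% of gene counts in sham, 12.5% to 13.9% in ligation and 14.3% in each cell library, and a fit without them changed the call of 1 member in 1 comparison (Ogn, ligation against sham). Nothing in the labels says that libraries came from separate animals, so p-values measure the spread between these libraries, which may be technical. The file headers of sham replicates 1 and 2 share a name stem, as do those of ligation replicates 2 and 3. Fold changes are relative to the median gene as TMM sets it. Scaling by library totals alone shifts that median by 0.19 for ligation against sham, by -0.03 for cells against ligation and by 0.16 for cells against sham on the log2 scale. It changes the share of called genes that are higher from 52.7% to 78.7%, from 42.4% to 32% and from 51.2% to 73.1%.

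All 9 proteoglycan genes were higher in ligated than in sham border zone. Biglycan (Bgn) changed most, to 2.42-fold of sham, and osteoglycin (Ogn) and decorin (Dcn) least, to 1.14-fold and 1.17-fold. The remaining 6 lay between 1.23-fold (Lum) and 1.64-fold (Fmod). An adjusted p-value under 0.05 (edgeR quasi-likelihood test, adjusted over 13825 genes) was reached upward by 9 of 9 members and downward by 0. Over all tested genes 38.2% passed, 20.1% upward and 18% downward. Every ligation library was above every sham library for 9 of 9 members, against 25% of tested genes, with 22.6% of tested genes wholly below sham. The median log2 fold change of the members was 0.50, beside 0.01 over all tested genes.

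**Figure D1:**
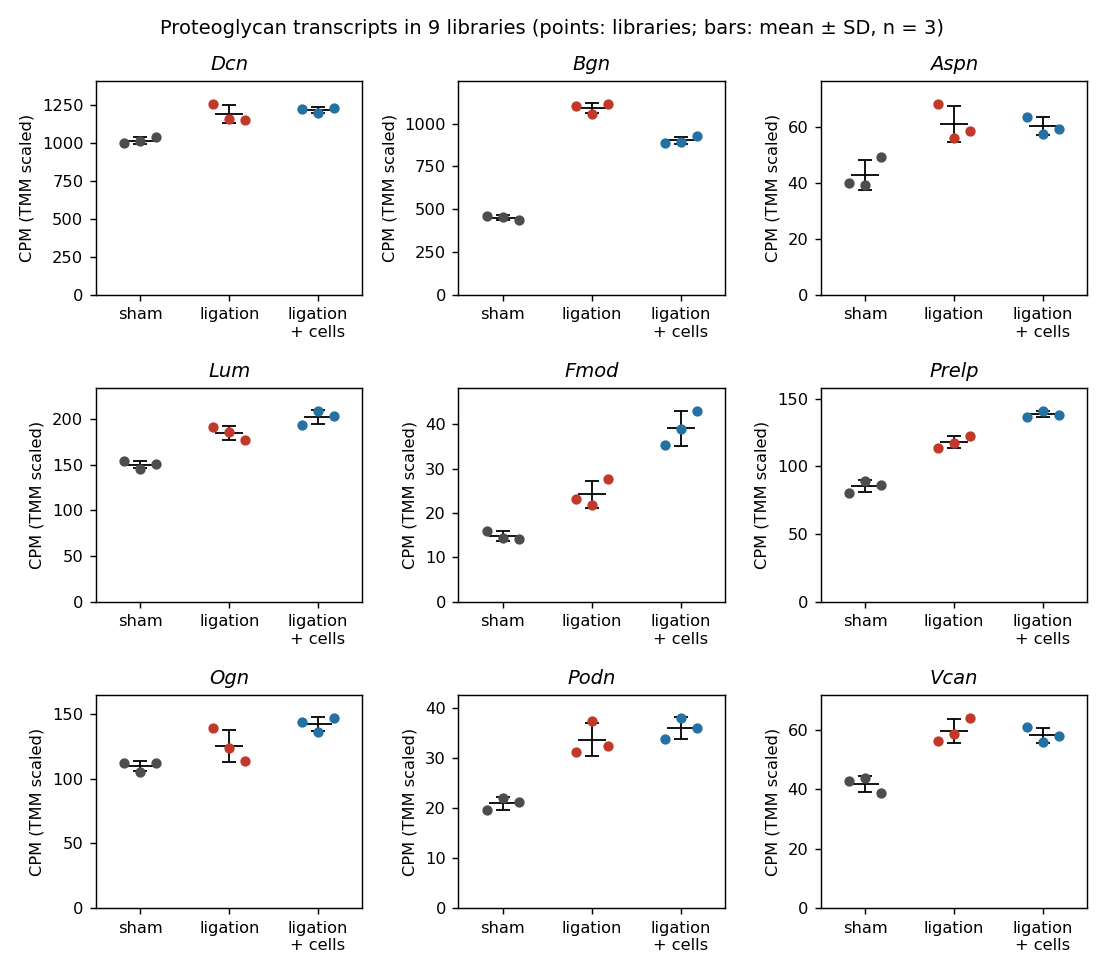
Levels of the 9 proteoglycan genes in CPM (vertical axes from 0) in sham, ligated and ligated hearts with cells. Each point is 1 library, and bars are the mean ± SD of 3. Bgn goes from 437 to 462 CPM in sham to between 1057 and 1115 in ligation and 889 to 927 with cells. Fmod and Prelp are highest with cells, as are the means of Dcn, Lum, Ogn and Podn, which had no call against ligation.

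Among the class I members, which have the decorin fold and an N-terminal cysteine cluster in common, Bgn encodes a proteoglycan that usually carries paired chondroitin or dermatan sulfate chains. Bgn measured 462, 454 and 437 CPM in sham replicates 1 to 3 and 1102, 1057 and 1115 CPM in the ligation replicates. The lowest ligation library was thus far above the highest sham library, and the log2 fold change was 1.28 (SE 0.0411, edgeR adjusted p 1.76e-15). Dcn, the main dermatan sulfate proteoglycan of fibrillar collagen and a ligand of TGF-beta, measured 1000.25, 1012 and 1040.1 CPM in sham and 1259, 1162 and 1154 CPM in ligation. Its groups did not overlap but the change was small, 0.23 on the log2 scale (SE 0.0399, edgeR adjusted p 0.000117). Aspn, asporin, is named for its run of aspartate residues and lacks the usual glycosaminoglycan chain. Aspn measured 40.05, 39.4 and 49.1 CPM in sham and 68.2, 56.1 and 58.5 CPM in ligation, a log2 fold change of 0.50 (SE 0.0925, edgeR adjusted p 0.00022). Sham replicate 3 stood above the other sham libraries for this gene.

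The class II members, several of which carry keratan sulfate, were also higher after ligation. Lum, lumican, binds a region of type I collagen that fibromodulin also binds, and is needed for regular fibril spacing. Lum measured 154, 146 and 150.3 CPM in sham and 192, 186 and 177 CPM in ligation, a log2 fold change of 0.30 (SE 0.0553, edgeR adjusted p 0.000205). Fmod, fibromodulin, regulates fibril thickness and collagen cross-linking. Fmod was far less abundant, at 16.02, 14.3 and 14.1 CPM in sham and 23.2, 21.7 and 27.6 CPM in ligation. Its log2 fold change of 0.72 had a wider error (SE 0.127, edgeR adjusted p 0.000124). Prelp, which anchors basement membranes to connective tissue through an arginine-rich and proline-rich end, measured 80.3, 89.3 and 86.5 CPM in sham and 114, 117 and 122.9 CPM in ligation. Its log2 fold change was 0.47 (SE 0.0615, edgeR adjusted p 3.62e-06).

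Ogn, also called mimecan, is a class III member. Ogn measured 112, 105 and 112 CPM in sham and 138, 123.3 and 114 CPM in ligation, so that ligation replicate 3 lay just above the highest sham library. Its log2 fold change was 0.19 (SE 0.0689, edgeR adjusted p 0.0385). Without ligation replicate 1 the change of Ogn was 0.11 (edgeR adjusted p 0.2), and the call was lost in 10 of 19 alternative fits, with adjusted p-values up to 0.2. Podn, podocan, is a class V member that binds collagen and restrains smooth muscle growth. Podn measured 19.6, 22.1 and 21.1 CPM in sham and 31.1, 37.3 and 32.4 CPM in ligation, a log2 fold change of 0.69 (SE 0.103, edgeR adjusted p 1.91e-05). Vcan, versican, the only large proteoglycan of the 9, measured 42.9, 43.8 and 38.9 CPM in sham and 56.3, 58.5 and 64.1 CPM in ligation. Its log2 fold change was 0.52 (SE 0.0785, edgeR adjusted p 2.23e-05). The groups did not overlap for either gene.

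Between ligated hearts with and without FOXO3-GE-MPCs the members did not move as one. Fmod and Prelp were higher with cells, Bgn was lower, and the other 6 members did not pass the test. Upward calls were thus made for 2 of 9 members, against 4.19% of all tested genes, and a downward call for 1 of 9, against 5.69% (9.87% in either direction). Library ranges lay wholly above ligation for 3 members (Lum, Prelp and Fmod) and wholly below for 1 (Bgn), against 13.2% and 14% of tested genes. Fmod measured 35.3, 38.8 and 43.1 CPM with cells, 1.60-fold of ligation (log2 fold change 0.68, SE 0.109, edgeR adjusted p 0.000224). The lowest cell library was above the highest ligation library, at 27.6 CPM. Prelp measured 137, 141 and 138 CPM with cells, also above every ligation library, with a log2 fold change of 0.23 (SE 0.059, edgeR adjusted p 0.0144). Without ligation replicate 2 the edgeR adjusted p of Prelp was 0.0677, and without cell replicate 2 it was 0.0568.

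Bgn measured 889, 891 and 927 CPM with cells, below every ligation library. The log2 fold change was -0.27 (SE 0.0401, edgeR adjusted p 8.2e-05), and Bgn was the member whose call held in all 20 alternative fits, from -0.30 to -0.26. When cell replicates 2 and 3 were left out, only cell replicate 1 remained and was assumed to vary like the other groups. Bgn then kept its call (edgeR adjusted p 0.00807) and Fmod and Prelp lost theirs, with log2 fold changes of 0.54 and 0.21 (edgeR adjusted p 0.0536 and 0.299).

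Of the 6 members without a call, Lum measured 194, 209 and 204 CPM with cells, all above the highest ligation library at 192 CPM (log2 difference 0.13, edgeR adjusted p 0.144). Ogn measured 143, 136 and 147 CPM with cells, and cell replicate 2 overlapped ligation replicate 1 (log2 difference 0.19, edgeR adjusted p 0.085). Without ligation replicate 1 the difference of Ogn was 0.26 with an edgeR adjusted p of 0.0132. Dcn measured 1228, 1198 and 1231 CPM with cells, inside the range of the ligation libraries (log2 difference 0.03, SE 0.0398, edgeR adjusted p 0.687). Aspn, Podn and Vcan showed log2 differences of -0.01, 0.09 and -0.04, for which the edgeR adjusted p was 0.972, 0.627 and 0.802. The libraries of the groups overlapped for these 3 genes, and the sign for Aspn and Vcan changed when single libraries were left out.

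**Figure D2:**
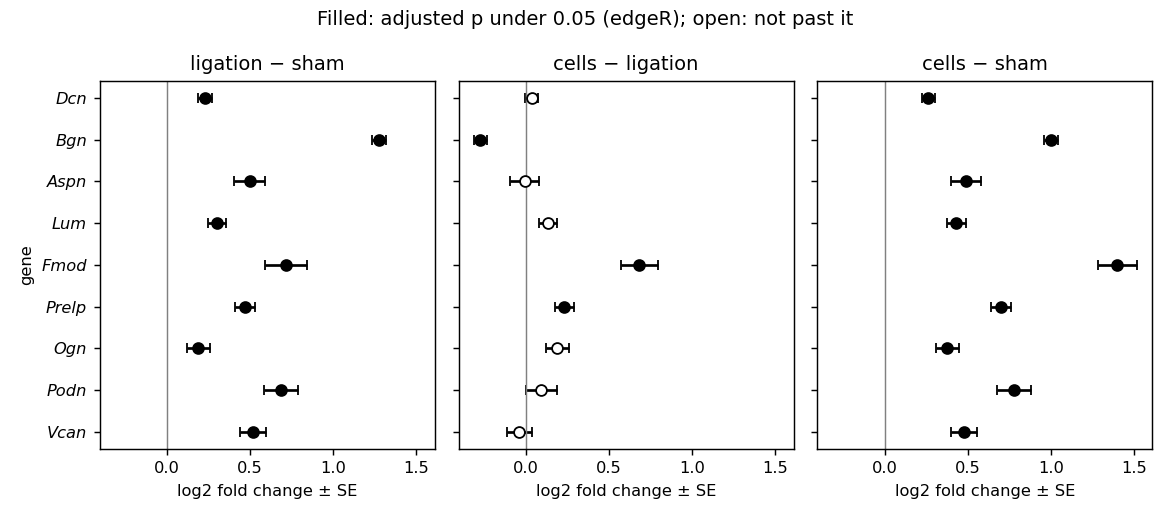
Log2 fold change (horizontal axes, ± SE from the edgeR fit) of the 9 proteoglycan genes in 3 comparisons. Filled points passed an adjusted p of 0.05. All 9 lie right of 0 against sham, while with cells against ligation Bgn lies at -0.27, Fmod at 0.68 and Prelp at 0.23 and the other 6 are open.

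Ligated hearts with cells stayed above sham for all 9 members. Calls upward were made for 9 of 9, against 21% of tested genes (20% downward, 40.9% in all). Library ranges lay wholly above sham for 9 of 9, against 25.4% of tested genes, with 24.5% wholly below. The order of the changes differed from that of ligation alone: Fmod was first at 2.64-fold of sham (log2 fold change 1.40, SE 0.119, edgeR adjusted p 6.76e-09). Bgn was at 2.001-fold (log2 fold change 1.001, SE 0.0409, edgeR adjusted p 8.01e-14). Podn, Prelp and Aspn were at 1.71-fold, 1.62-fold and 1.403-fold, Vcan at 1.39-fold, Lum at 1.35-fold and Ogn at 1.297-fold. Dcn was last at 1.198-fold (log2 fold change 0.26, SE 0.0399, edgeR adjusted p 2.28e-05). Ogn, uncertain after ligation alone, was 0.37 above sham on the log2 scale here (SE 0.068, edgeR adjusted p 0.000157). The largest adjusted p-value of any member in this comparison was 0.00841, for Ogn, over the 20 alternative fits. The comparisons share their sham and ligation libraries and are given side by side, not as independent evidence.

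To compare levels between genes, CPM was divided by gene length in kb of all annotated exons. Summed over the 9 members this level was 406 ± 4.6 (SD, n = 3) in sham, 585 ± 19.4 in ligation and 583 ± 8.05 with cells. Dcn made up 42.9% ± 0.534 (SD, n = 3) of the sum in sham, 34.9% ± 0.6 in ligation and 35.8% ± 0.455 with cells. Bgn made up 18.2% ± 0.696 in sham, 30.6% ± 1.01 in ligation and 25.4% ± 0.244 with cells, and its 3 groups did not overlap. Lum had 12.9% to 15.1% on average, Ogn 8.32% to 10.5%, Prelp 5.58% to 6.58% and Aspn 4.39% to 4.47%. Fmod, Podn and Vcan were the least abundant, with Fmod going from 1.104% ± 0.0819 in sham and 1.25% ± 0.172 in ligation to 2.03% ± 0.177 with cells. In sham the order was Dcn, Bgn, Lum, Ogn, Prelp, Aspn, Podn, Fmod and Vcan, and Podn (4.9 ± 0.295 CPM per kb) and Fmod (4.48 ± 0.314) did not differ beyond their spread. With cells Fmod (11.8 ± 1.17) stood above Podn (8.41 ± 0.498) in CPM per kb, with no overlap.

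The place of Bgn depends on the length used, because its annotated exons add up to 6099 bases while its longest transcript has 2666. With the longest transcript Bgn had 31% of the sum in sham, 47.2% in ligation and 40.9% with cells, and Dcn had 39.7%, 29.2% and 31.4%. On that measure Bgn passed Dcn in ligation and with cells, and on the exon measure Dcn stayed first in every group. The ratio of Bgn to Dcn per kb of exon was 0.424 ± 0.0205 (SD, n = 3) in sham, 0.878 ± 0.0436 in ligation and 0.709 ± 0.014 with cells, with no overlap between groups. An exact two-sided permutation test gave p = 0.1 for each pair of groups, the lowest that a design of 3 against 3 can reach. The ratio of Fmod to Lum, whose proteins share a binding region on collagen, was 0.0731 ± 0.00369 in sham, 0.0973 ± 0.0161 in ligation and 0.143 ± 0.0118 with cells (exact permutation p = 0.1 for each pair).

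**Figure D3:**
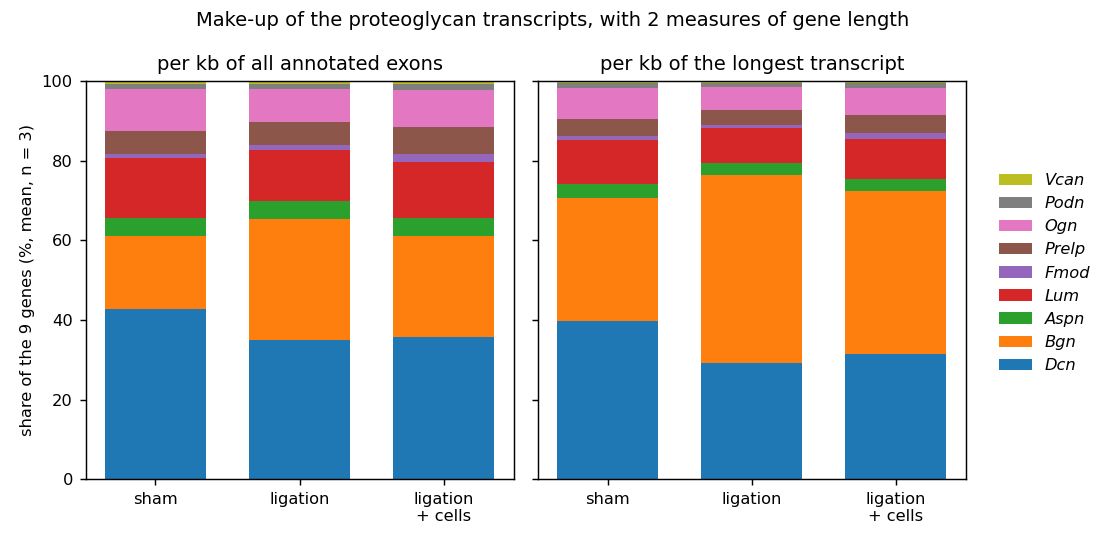
Share of each gene in the summed per-length level of the 9 proteoglycan genes (percent, mean of 3 libraries per bar), with length from all annotated exons on the left and from the longest transcript on the right. The share of Bgn is largest in ligation on both measures, at 30.6% and 47.2%.

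The collagens that these proteoglycans bind were higher after ligation. Of 11 tested fibril and fibril-associated collagens, 10 rose and 0 fell (median log2 fold change 1.29), against 20.1% and 18% of all tested genes. The largest changes among those with a mean of at least 1 CPM were those of the fibril-associated collagens Col12a1 and Col14a1 (1.92 and 1.54), the type III chain Col3a1 (1.38), Col1a2 and Col5a2 (1.29 each) and Col1a1 (1.18). The exception was Col6a3 at 0.06 (edgeR adjusted p 0.571). With cells 1 of the 11, Col3a1, was lower than in ligation, by -0.23 on the log2 scale, against 5.69% of all tested genes. In the fit without ligation replicate 1, 4 of the 11 passed. The summed level per kb of the 9 proteoglycans divided by that of the 12 listed collagens was 2.26 ± 0.0801 (SD, n = 3) in sham, 1.54 ± 0.104 in ligation and 1.69 ± 0.00468 with cells. These groups did not overlap. Dcn relative to Col1a1, the main type I chain, was 4.64 ± 0.083 in sham, 2.43 ± 0.338 in ligation and 2.68 ± 0.0709 with cells, the last 2 groups overlapping (exact permutation p = 0.1 between sham and ligation, 0.4 between ligation and cells). Bgn relative to Col1a1 was 1.97 ± 0.117 in sham, 2.12 ± 0.194 in ligation and 1.898 ± 0.0449 with cells. Its sham and ligation libraries overlapped (exact permutation p = 0.5), as did sham and cells (p = 0.6). Those with cells lay below ligation only narrowly, the highest at 1.94999 and the lowest ligation library at 1.95046 (exact permutation p = 0.1).

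Of 10 other small leucine-rich proteoglycan genes, 5 passed the filter on low counts. After ligation 0 of these 5 passed the test by edgeR or DESeq2, against 38.2% of all tested genes by edgeR. Of the 5, 3 had an unadjusted p under 0.05 and 3 passed upward with library totals alone. Without the filter on low counts the calls also came to 3. In the fit without ligation replicate 1, without ligation replicate 2, without ligation replicate 3 or without cell replicate 2, 1 passed. Ecm2, the neighbour of Aspn, measured 47.3 ± 5.23 CPM (SD, n = 3) in sham, 54.1 ± 5.74 in ligation and 61.9 ± 2.41 with cells, and had a call against sham with cells (log2 fold change 0.39, edgeR adjusted p 0.00147). Omd, which lies between Aspn and Ogn, had 3 to 20 counts per library and no call. Kera and Epyc, which follow Lum, had at most 1 and at most 10 counts per library. Chad was the 1 gene of the 5 with a call with cells against ligation, where 9.87% of all tested genes had one. Its counts were 22, 7 and 26 with cells against 1, 6 and 1 in ligation. Without ligation replicate 3 or without cell replicate 3, 0 of the 5 passed.

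Among the other large and basement membrane proteoglycans 4 of 8 tested genes rose after ligation and 2 fell, against 20.1% and 18% of all tested genes. Prg4, lubricin, rose by 1.33 and Acan, the versican relative aggrecan, rose by 1.10 on the log2 scale, the latter from only 7 to 11 counts per sham library. Col18a1 and Esm1 rose by 0.81 and 0.96. Hspg2, the basement membrane proteoglycan perlecan, fell by 0.27 and Srgn, the intracellular proteoglycan of blood cells, fell by 0.51 on the log2 scale. With library totals alone 4 rose and 1 fell. With cells Prg4 was lower than in ligation (-0.46, edgeR adjusted p 7e-05), and the other 7 did not pass, where 9.87% of all tested genes had a call. The calls came to 2 with library totals alone, without the filter on low counts, with limma-voom, without mitochondrially encoded genes, without ligation replicate 1 and without sham replicate 2.

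Cell surface proteoglycans rose in 8 of 11 tested genes after ligation and fell in 0, against 20.1% and 18% of all tested genes, and with library totals alone all 11 rose. Gpc3 and Gpc6, glypicans, rose by 1.58 and 1.17, Cd44, the hyaluronan receptor, by 0.97, Sdc1, a syndecan, by 0.75, and the glypicans Gpc4 and Gpc1 by 0.55 and 0.54. With cells 5 of the 11 were lower than in ligation and 1 was higher, against 5.69% and 4.19% of all tested genes, and without cell replicates 2 and 3 the calls came to 1. The higher one was Gpc1 (log2 fold change 0.26, edgeR adjusted p 0.00114), which went from 163 ± 0.876 in sham and 237 ± 6.4 in ligation to 283 ± 5.92 CPM with cells. The lower ones were Gpc3 (-0.47), Sdc3 (-0.42), Cd44 (-0.38), Sdc2 (-0.29) and Cspg4 (-0.25). Srgn, Cd44 and Sdc3 are also expressed by leukocytes, and the part of leukocytes in these values was not tested. After ligation Cd44 rose (0.97), Sdc3 did not pass (0.16, edgeR adjusted p 0.0626) and Srgn fell (-0.51). Leukocyte markers, given below, rose in 6 of 6. With cells against ligation Cd44 and Sdc3 were lower, as those markers were, and Srgn did not pass (-0.11, edgeR adjusted p 0.509).

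Among genes that build and sulfate the chains, the share with a call after ligation is to be read beside the 38.2% of all tested genes. Of 7 tested genes for the linker between core protein and chain, 1 rose after ligation (Fam20b, the xylose kinase, by 0.58) and 2 fell (B4galt7 by -0.44 and B3gat3 by -0.32). With library totals alone 2 rose and 0 fell. With cells 0 of the 7 passed by edgeR or DESeq2, and 1 had an unadjusted p under 0.05. Of 14 chondroitin and dermatan sulfate genes 6 rose and 0 fell, among them Ust by 0.84, Dse, an epimerase that makes dermatan sulfate, by 0.72, the chain polymerase genes Chsy1 and Chpf by 0.62 and 0.58, Chst12, a sulfotransferase, by 0.41 and Csgalnact2 by 0.29. The count was 3 without sham replicate 1 and 3 without ligation replicate 3. Dse was the 1 gene of these 14 to pass with cells against ligation, where 9.87% of all tested genes passed. It was at 22.4 ± 1.59 CPM (SD, n = 3) in ligation and 14.6 ± 1.6 with cells, beside 13.7 ± 0.585 in sham. Without cell replicates 2 and 3, 0 of the 14 passed. Of the 4 tested keratan sulfate genes 1 rose (B4galt1, by 0.26) and 1 fell (B4galt4, by -0.40) after ligation, and 2 rose and 0 fell with library totals alone. With cells 0 of the 4 passed by edgeR or DESeq2, and 0 had an unadjusted p under 0.05.

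Among 9 tested proteases that process or cleave these core proteins, 5 rose after ligation and 0 fell (3 without ligation replicate 1), against 20.1% and 18% of all tested genes. Bmp1, which removes the biglycan propeptide, rose by 0.59, and Tll1, its relative, rose by 2.19 from at most 1.25 CPM in sham. Adamts8, Adamts9 and Adamts1 rose by 1.17, 0.26 and 0.24. Adamts8 measured 2.85, 2.14 and 3.65 CPM in sham, 6.39, 7.67 and 5.63 CPM in ligation and 18.2, 19.98 and 22.8 CPM with cells. It was higher with cells than in ligation by 1.63 on the log2 scale (SE 0.173, edgeR adjusted p 1.41e-06). Adamts9, a versican-cleaving protease, was lower with cells, at 44.4 ± 1.15 CPM in ligation and 27.6 ± 3.94 with cells (-0.69, edgeR adjusted p 4.46e-05). These 2 calls of 9 stand against 9.87% of all tested genes, and without ligation replicate 1, 4 of the 9 passed with cells. Of 9 tested hyaluronan genes 3 rose after ligation (Has1, a hyaluronan synthase, Cemip and Cemip2) and 1 fell (Hyal2, a hyaluronidase, by -0.30). With library totals alone 3 rose and 0 fell. With cells 0 of the 9 passed by edgeR or DESeq2, and 1 had an unadjusted p under 0.05.

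Of the growth factor and receptor partners, 9 of 13 rose after ligation and 1 fell, against 20.1% and 18% of all tested genes. Tgfb2 and Tgfb3, ligands that decorin and biglycan can bind, rose by 1.80 and 0.996, the receptor genes Met and Tgfbr1 rose by 1.56 and 0.93, and Tgfb1 did not pass (0.03, edgeR adjusted p 0.812). Tlr4 and Tlr2, receptors through which soluble biglycan signals, rose by 0.85 and 0.89, and Kdr, an endothelial receptor, fell by 0.89. With cells Tlr2 and Tgfb1 were lower than in ligation, by -0.75 and -0.37, and Erbb4 and Kdr were higher, by 0.74 and 0.24, which is 4 calls of 13 against 9.87% of all tested genes. Without ligation replicate 2, 2 of the 13 passed with cells, and without cell replicates 2 and 3, 0 passed.

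**Figure D4:**
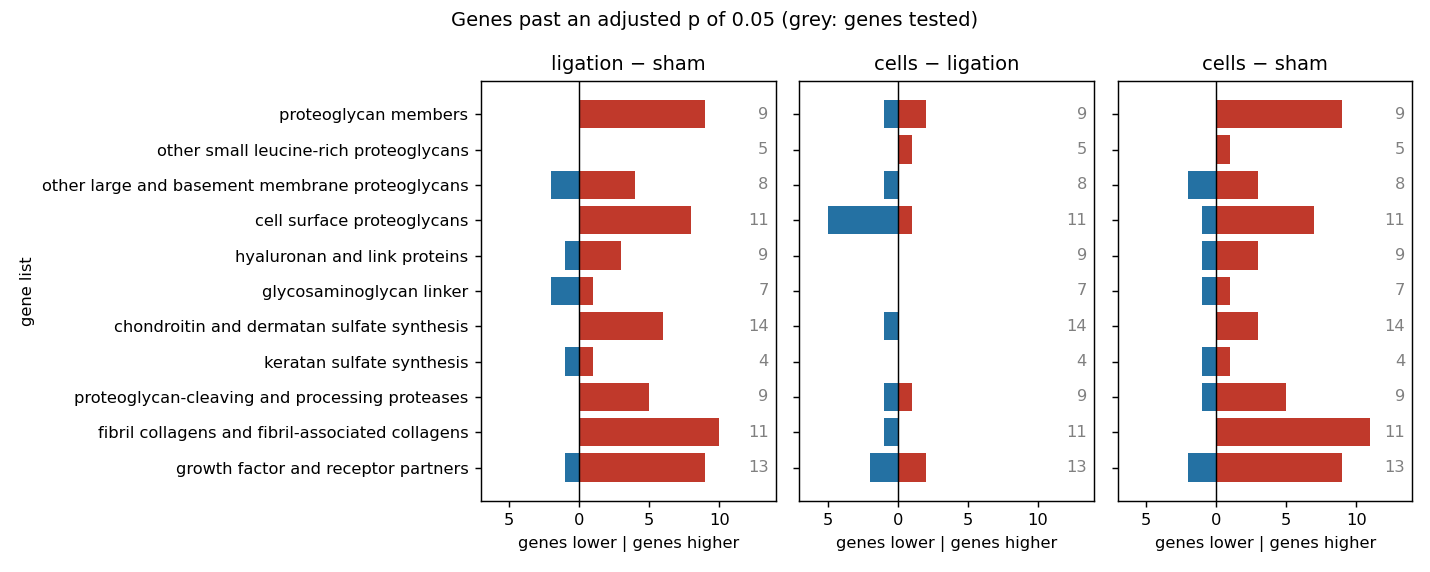
Number of genes past an adjusted p of 0.05 (horizontal axes, higher to the right and lower to the left) in the 9 proteoglycan genes and 10 lists of related genes, for 3 comparisons. Grey numbers are the genes tested. With cells against ligation the cell surface proteoglycans show 5 lower and 1 higher of 11.

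Markers of the cells that the border zone can hold moved with the groups, and their part in the proteoglycan results was not tested. Counts of calls after ligation stand beside 20.1% of all tested genes that rose and 18% that fell. Of 8 resting fibroblast markers 2 rose and 4 fell after ligation, and their summed level was 2721 to 2798 CPM in sham, 2666 to 2719 in ligation and 2667 to 2767 with cells. Gsn made up most of that sum, averaging 2178 CPM in sham, 2045 in ligation and 2093 with cells. Pi16 rose from 147 to 247 CPM and Scara5 fell from 40.1 to 29.1 CPM on average after ligation. The defining markers Pdgfra and Tcf21 were at 61.4 and 18.4 CPM in sham, 53.4 and 19.3 in ligation, and 53.5 and 18.1 with cells. With library totals alone 3 of the 8 rose and 1 fell, and 3 of the 8 passed without sham replicate 1 or without ligation replicate 2. Activated fibroblast markers rose in 4 of 7 and fell in 1 (Acta2, by -0.43), with sums of 435 to 469, 721 to 738 and 670.2 to 707 CPM in sham, ligation and cells. Late scar fibroblast markers rose in 5 of 6 (all but Chad, itself a small leucine-rich proteoglycan), with sums of 71.2 to 76.04, 421 to 443 and 402 to 410.1 CPM, of which Comp averaged 16.4, 267 and 253 CPM. Epicardial and mesothelial markers rose in 6 of 6, with sums of 36.2 to 48.8, 205 to 248 and 170.2 to 179 CPM.

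Calls with cells against ligation stand beside 4.19% of all tested genes that were higher and 5.69% that were lower. In that comparison 0 of the 8 resting fibroblast markers passed by edgeR (0 by DESeq2, and 1 had an unadjusted p under 0.05). Of the 8, 1 passed without ligation replicate 1, with library totals alone, without the filter on low counts and with the replicate block. Of the activated fibroblast markers 1 was higher (Acta2, by 0.15) and 1 lower (Postn, by -0.25, edgeR adjusted p 0.00374, beside -0.27 for Bgn). That count was 1 without sham replicate 1, without any 1 of the 3 ligation replicates, without cell replicate 1 or 2, without cell replicates 2 and 3, with the replicate block and with libraries of one header name stem summed. With library totals alone it was 0 higher and 1 lower. Of the late scar markers 2 were higher (Chad and Sfrp2) and 1 lower (Cilp), and 1 passed without ligation replicate 3 or without cell replicate 3. Of the epicardial and mesothelial markers 2 were lower (Upk3b and Krt19), and 1 passed without cell replicates 2 and 3. Of the smooth muscle and pericyte markers 2 were lower (Kcnj8 and Notch3), with 0 past the threshold without ligation replicate 2, 0 without cell replicates 2 and 3, and 1 without ligation replicate 3, without cell replicate 2 or with libraries of one header name stem summed. Of the cardiomyocyte markers 1 was higher (Pln) and 2 lower (Tnnt2 and Ttn), and 1 passed without cell replicate 1 or without cell replicates 2 and 3. With library totals alone 0 were higher and 4 lower. Of the endothelial markers 1 was higher (Kdr) and 1 lower (Vwf), and 0 passed without cell replicates 2 and 3.

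After ligation 20.1% of all tested genes rose and 18% fell, and with cells against ligation 4.19% were higher and 5.69% lower. Macrophage and leukocyte markers rose in 6 of 6 after ligation and were lower with cells than in ligation in 6 of 6. Their sums were 495 to 544 CPM in sham, 977 to 1001 in ligation and 397 to 415 with cells. Cardiomyocyte markers fell in 5 of 7 and rose in 1 after ligation, with sums of 39061 to 40726, 32908 to 33768 and 31792 to 32322 CPM, although with library totals alone 3 rose and 3 fell. Smooth muscle and pericyte markers fell in 4 of 6 and rose in 1, with sums of 1437 to 1461, 1017 to 1034 and 979.8 to 1021 CPM. Endothelial markers fell in 5 of 6 and rose in 1, with sums of 1890.3 to 2005, 1331 to 1441 and 1425 to 1464 CPM. Of 6 chondrocyte markers 3 were tested and all 3 rose after ligation (Comp, Acan and Sox9, by 4.02, 1.10 and 0.83), and 0 passed with cells against ligation by edgeR (0 by DESeq2, and 2 had an unadjusted p under 0.05). The defining Col2a1 had 0 counts in sham and at most 7 in any library, and Col9a1 and Matn3 did not pass the filter. The sum of the 6, at 21.5 to 27.1, 274 to 294 and 267 to 274 CPM, included Comp, which the late scar list holds too. Of 5 valve and tendon markers 2 were tested, of which Scx rose by 0.88 and Penk fell by 0.61 after ligation. The calls came to 1 with library totals alone and 1 with the replicate block. They also came to 1 without sham replicate 1, without sham replicate 3 or without ligation replicate 1. Tnmd had at most 2 counts in any library, and the sum was 24.1 to 26.7, 25.4 to 31.9 and 22.9 to 29.3 CPM.

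The genes whose log2 CPM followed Bgn, Fmod, Prelp and Dcn most closely over the 9 libraries are given as a description, since the libraries form 3 groups and many genes separate those. Bgn was followed by Des, Tmem119 and Timp1, each with a Pearson correlation of at least 0.997 and, like Bgn, highest in ligation. Timp1, an inhibitor of matrix metalloproteinases, measured 11.1 CPM on average in sham, 59.6 in ligation and 40.3 with cells. Fmod was followed by Nr4a1, Hsp90aa1 and Xpo5 (0.983, 0.983 and 0.982), and Nr4a1, an immediate-early nuclear receptor, measured 12.05, 26.8 and 69 CPM in the same order. Prelp was followed by Slc25a1, Slc38a2 and Fasn (0.993, 0.991 and 0.99), of which Fasn, fatty acid synthase, measured 41.1, 141 and 240.2 CPM. Dcn was followed by Crk, Eloa and Plce1 (0.988, 0.987 and 0.982). Members were no closest partner of one another. Among themselves the highest correlation was 0.959 for Dcn and Aspn, and the lowest was 0.642 for Ogn and Vcan.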

How the data were processed

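RNA was sequenced from 9 libraries of mouse heart (3 sham, 3 ligation, 3 ligation with cells; groups and replicate numbers from the titles). TRIzol extracts were made into libraries with a NEBNext Ultra RNA kit, per the labels' protocols. The authors deposited raw counts for each Ensembl gene, and the build is mm10 per the submitters' processing notes. The aligner, counter, strand setting and annotation release are not given in the sources used here. Rows that name no gene held 4.14% to 4.91% (reads outside genes) and 8.09% to 8.72% (ambiguous reads) of reads and were left out. Symbols for 53274 of 53465 IDs, positions and lengths came from GENCODE M21. Genes were kept with filterByExpr, scaled with TMM, and fitted in one model of 3 group means (edgeR 4.0.16 quasi-likelihood, R 4.3.3, 6 residual degrees of freedom). Adjusted p-values are Benjamini-Hochberg over 13825 genes, with a threshold of 0.05, two-sided. Standard errors are the log2 fold change divided by the square root of F.

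Replicate pairs of a group differed by more than counting noise (mean chi-square per gene 1.98 to 3.96), also the pairs that share a header name stem, so none was treated as a repeat deposit of another. That check cannot tell separate animals from separate preparations of one animal. The fit was tested on simulated data with known changes. As alternatives, the scaling and the filter were changed, and DESeq2 1.42.0, limma-voom (limma 3.58.1) and 2-group fits were run, as well as removal of mitochondrially encoded genes, a replicate block, leaving out libraries, and, chosen after seeing the files, summing libraries that share a header name stem. Members and gene lists were chosen with earlier results of these data known. The genes named are the 9 members, up to 6 called genes with a mean of at least 1 CPM and the largest change per list in each of the first 2 comparisons, defining cell markers, and, for 4 members, the 3 genes with the highest correlation (mean of at least 5 CPM). Genes named outside that rule were added after their values were seen. They are Kera, Epyc, Omd, Ecm2, Cemip, Tlr4, Col6a3 and the cell type markers that are not defining ones. Reads of the implanted cells were not separated.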

Additional observations from a re-analysis of the deposited data

How the results depend on the processing

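Over 531 alternative values of the 27 member fold changes (9 genes, 3 comparisons), 508 kept direction and side of the threshold, 14 lost the call, 2 gained it and 7 changed sign. The losses were Ogn in ligation against sham (10 fits) and, with cells against ligation, Prelp (3) and Fmod (1). The gains were Ogn with cells against ligation, with limma-voom (0.20, adjusted p 0.0457) and without ligation replicate 1. The sign changes were those of Aspn and Vcan with cells against ligation, neither past the threshold in those fits. Aspn became 0.003311 with limma-voom and 0.07642 without cell replicates 2 and 3, and ranged from -0.0652 to 0.06732 in fits without 1 library. Vcan became 0.02585 without cell replicates 2 and 3 and ranged from -0.0785 to 0.02021 in fits without 1 library. Leaving out cell replicates 2 and 3 also gave 485 genes past 0.05 with cells against ligation (1365 with all libraries) and 1 member past it (3 with all). Fewer libraries enter that fit. With the longest transcript as length, the shares of Dcn were 39.7%, 29.2% and 31.4%, and those of Bgn 31%, 47.2% and 40.9%, in sham, ligation and cells. In fits without 1 library, 4482 to 5459, 951 to 1398 and 5055 to 5746 genes and 8 to 9, 2 to 4 and 9 members passed in the 3 comparisons. With the replicate block, 5134, 1230 and 5511 genes and 9, 3 and 9 members passed, and it changed no member's call. Deviations of same-numbered libraries correlated from -0.119 to 0.086. The closest partner of each library in each other group bore the same number in 4 of 18 cases. These values give no sign that the numbers pair the libraries, but cannot exclude it. Of 1298 alternative counts of calls, over all genes, members and lists, 70 moved by over 1.5 times. Of the members, Fmod and Podn have the fewest counts.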
